A study of Mus musculus with 12 samples.

Results

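The genes described here are the mitochondrial carrier family Slc25, taken as every row of the deposited expression table whose symbol is Slc25a followed by a number. That rule found 45 of the 25553 genes of the table, and it used no expression value. The table gives RNA-seq expression as FPKM, a fragment count corrected for gene length and sequencing depth, in kidneys of 12 wild-type mice, 3 in each of 4 groups that carried 1 batch number. Normoxic sham mice (NS) had neither treatment. Normoxic RIRI mice (NR) had renal ischemia-reperfusion injury, in which both renal pedicles were clamped for 45 min through the abdomen and the kidneys were taken after 12 h of reperfusion. Preconditioned sham mice (HS) had hypoxic preconditioning alone, which was 2 h, 4 h and 8 h on days 1, 2 and 3 in a normobaric chamber at 8% oxygen, a level reached over 20 min. Preconditioned RIRI mice (HR) had that preconditioning and then the injury. Single libraries are written NS1 to NS3, NR1 to NR3 and so on, each from 1 mouse. No source used here gives the sex, strain or age of the mice, all groups were taken at 1 time point, and the kidney RNA mixes all cell types. The design asks how preconditioning alters the kidney's response to the injury.

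Slc25 proteins sit mostly in the inner mitochondrial membrane, which is otherwise closed to charged metabolites, and each exchanges or carries a small set of substrates such as ADP and ATP, phosphate, amino acids, carboxylates, cofactors or iron. They share a fold built from repeated pairs of membrane helices, and most are made in the cytosol and inserted through the TOM and TIM22 import machinery. The proximal tubule, which makes up much of the kidney cortex, depends on mitochondrial ATP for reabsorption and is the segment most exposed to ischemic damage. Groups of members below are by the substrate each is known for.

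Reads recovered from the steps of the deposited values ran from 33096854 to 35707662 per library, and relative depth from 0.981 to 1.06. The kidney label fitted the markers, since 10 proximal tubule genes summed to FPKM 6984 to 7573 in normoxic sham kidneys, and 4 adrenal genes were each under FPKM 1 in every library. Sums and medians of a list, here and below, cover all its tested genes, whether or not called. All 10 of those proximal tubule genes fell in normoxic RIRI against normoxic sham, to summed FPKM of 2246 to 2751. Between the RIRI groups 6 of the 10 were higher with preconditioning. Over all 10 the sum in preconditioned RIRI was 2720 to 3182 and the median log2 fold change between RIRI groups 0.56. All 10 were lower in preconditioned RIRI than in preconditioned sham (median -1.08). All 6 thick ascending limb genes were higher in preconditioned than in normoxic RIRI (median 2.16), at summed FPKM of 1666 to 1997 against 1108 to 1564. Their sums were 1766 to 1946 in normoxic sham and 2099 to 2247 in preconditioned sham, and 3 of the 6 were lower in preconditioned RIRI than in preconditioned sham. Of 5 collecting duct genes 4 were higher in preconditioned than in normoxic RIRI (median 1.73), at 284 to 564 against 159 to 195. Their sums were 281 to 338 in normoxic sham and 435 to 598 in preconditioned sham, and 3 were lower in preconditioned RIRI than in preconditioned sham. No gene of these tubule lists was called higher or lower between the sham groups, against 0.421% of all genes. Over all genes tested 30.1% fell in normoxic RIRI, and 24.7% were higher in preconditioned than in normoxic RIRI. Against preconditioned sham, 19.4% of all genes were lower in preconditioned RIRI. The 4 tubular injury genes summed to 388 to 395 in normoxic sham, 497 to 620 in preconditioned sham, 11433 to 14702 in normoxic RIRI and 7664 to 8797 in preconditioned RIRI. The 7 neutrophil genes summed to 2.26 to 15.1, 1.73 to 4.39, 132 to 293 and 23.6 to 111 in the same order. These shifts run alongside every result below that involves the injury, and their part in the carrier results was not tested. In RNA from kidney tissue, fewer cells of a type and less RNA per cell cannot be told apart.

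Of the 45 members, 38 reached FPKM 1 in at least 3 of the 12 libraries and were tested with limma on log2(FPKM + 1). A gene is called higher or lower, or said to have risen or fallen, where its Benjamini-Hochberg adjusted p over all genes tested was under 0.05, and changes are log2 fold changes on that scale. In normoxic sham kidneys the family summed to FPKM 2509 ± 27.9 (SD, n = 3), and 5 genes gave 73.0% of it. These were Slc25a5 and Slc25a4, the ADP/ATP translocases, Slc25a3, the phosphate carrier, Slc25a39, a glutathione carrier, and Slc25a10, the dicarboxylate carrier. The order by FPKM was Slc25a5 at 826 ± 3.29, Slc25a3 at 465 ± 5.86, Slc25a39 at 232 ± 10.6, Slc25a4 at 205 ± 6.64 and Slc25a10 at 104 ± 6.58, and no neighbours among these 5 overlapped in the 3 sham libraries. Next came Slc25a11 at 83.9 ± 7.41 and Slc25a1 at 74.3 ± 3.39, whose values overlapped, and then Slc25a15 at 55.1 ± 0.283 and Slc25a17 at 54.6 ± 2.81, which overlapped too. The family sum was 1899 ± 123 in normoxic RIRI, 2680 ± 78.5 in preconditioned sham and 2234 ± 87.9 in preconditioned RIRI. Both RIRI groups were below both sham groups in every library, and the 5 leading genes still held 70.7% and 71.9% of the sum.

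Injury without preconditioning lowered 21 of the 38 tested carriers and raised 6, with 11 not called. Over all 12357 genes tested, 71.7% were called in this comparison, 30.1% as lower and 41.6% as higher, so the share called was near the background while lower calls were the more common direction among the carriers. The median log2 fold change was -0.31 over the carriers against 0.10 over all genes. Rescaling the libraries by their median ratios moved the median of all genes from 0.10 to -0.00, and the carriers' median lay below it by 0.41 on the values as deposited and by 0.43 after rescaling. That rescaling called 24 carriers lower and 5 higher. At least a 2-fold change, which is a log2 fold change of 1 in size on FPKM + 1, was called for 12 carriers, against 20.8% of all genes. The 3 sham and 3 RIRI values did not overlap in 31 of 38 carriers, against 74.3% of all genes.

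**Figure D1:**
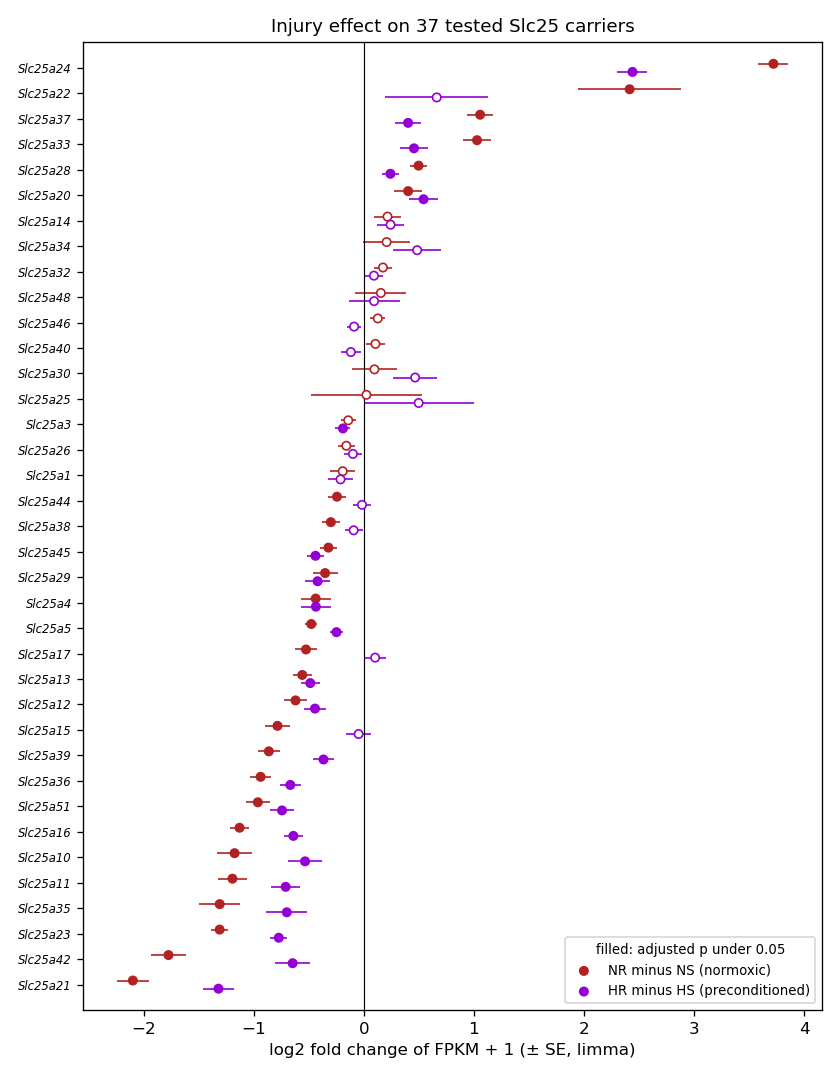
Log2 fold change of FPKM + 1 (x axis, ± SE from limma) of 37 of the 38 tested carriers after RIRI in normoxic mice and in preconditioned mice, each against its own sham group, with filled points at adjusted p under 0.05. Slc25a24 stands farthest to the right, at 3.72 without and 2.44 with preconditioning, and Slc25a21 farthest to the left, at -2.10 and -1.32.

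The same injury in preconditioned mice, against preconditioned sham, raised 5 carriers and lowered 18. Of all genes 52.4% were called, 33.0% as higher and 19.4% as lower, and the groups did not overlap in 26 of 38 carriers against 63.3% of all genes. The median was -0.15 over the carriers and 0.10 over all genes. These 2 injury comparisons share no library, but their tests share one estimate of spread over all 4 groups. Of the 6 raised in normoxic mice, 5 (83.3%) were also raised in preconditioned mice, which is 100% of the 5 raised there. Of the 21 lowered, 17 (81.0%) were also lowered, which is 94.4% of the 18 lowered there. The same overlap was not counted over all genes, so these shares are not a result about the carriers. Only Slc25a22 among the raised, and Slc25a15, Slc25a17, Slc25a38 and Slc25a44 among the lowered, were called without preconditioning alone, and only Slc25a3 with it alone. Both rescalings called Slc25a38 lower in preconditioned mice too (adjusted p = 0.0429 and 0.0321), and Slc25a3 lower in normoxic mice too. The difference between the 2 injury effects, given below, was called for Slc25a15 and Slc25a17 and not for Slc25a22, Slc25a38, Slc25a44 or Slc25a3. The count of 5 higher was 3 without HR3.

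Preconditioned RIRI kidneys, set against normoxic RIRI kidneys, had 17 carriers higher and 5 lower. Of all genes 42.1% were called, 24.7% as higher and 17.4% as lower, and the groups did not overlap in 21 of 38 carriers against 47.7% of all genes. The median was 0.17 over the carriers and 0.06 over all genes. After median-ratio rescaling the split was 14 higher and 7 lower, and without HR2 the count of lower carriers was 3. This comparison shares its normoxic RIRI libraries with the normoxic injury comparison, so the values of both are given side by side below and no count is drawn across them. Preconditioning alone called no carrier in either direction by limma, against 0.421% of all genes; 4 carriers had an unadjusted p under 0.05, and the test on recovered reads with limma's voom called 0. The sham groups did not overlap in 11 of 38 carriers, against 29.4% of all genes. The lowest adjusted p was that of Slc25a23, at 0.118. A fit of the sham groups alone called Slc25a23 higher (adjusted p = 0.0279).

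**Figure D2:**
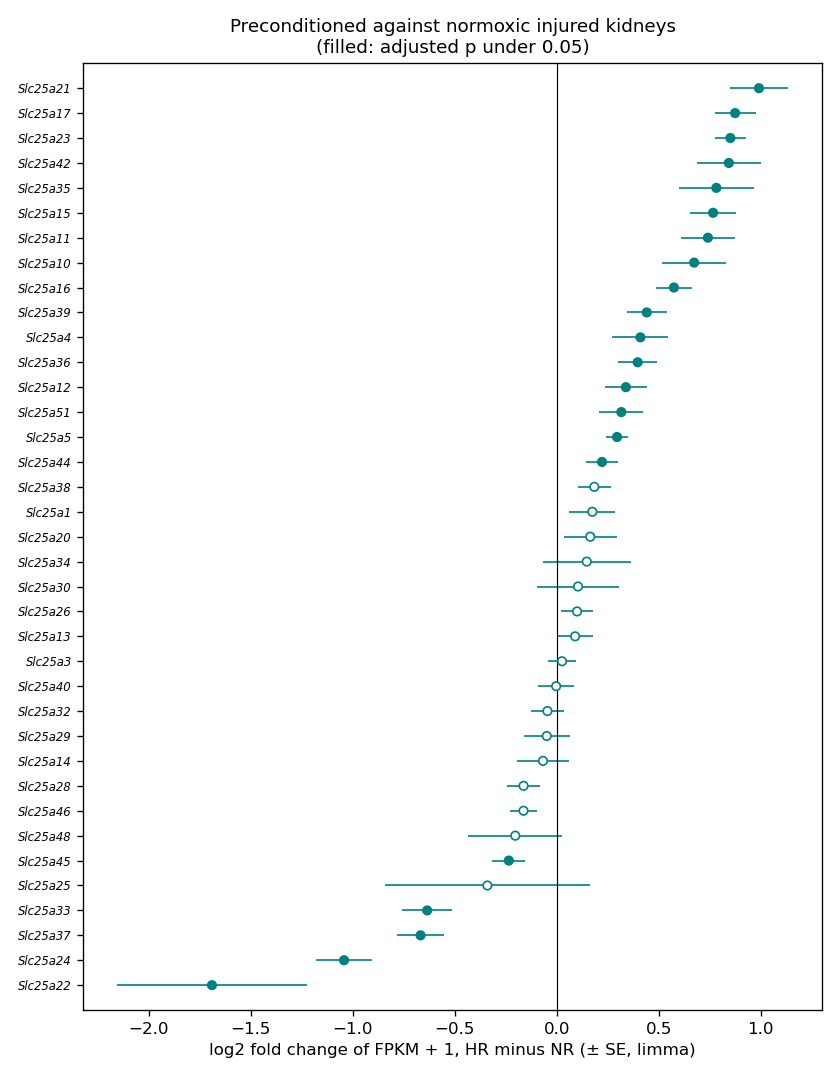
Log2 fold change of FPKM + 1 (x axis, ± SE from limma) of 37 of the 38 tested carriers in preconditioned RIRI against normoxic RIRI kidneys, ordered by size, with filled points at adjusted p under 0.05. The 16 filled points on the right run from 0.22 for Slc25a44 to 0.99 for Slc25a21, and the 5 on the left from -0.24 for Slc25a45 to -1.69 for Slc25a22.

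Nucleotide and cofactor carriers were the largest group, with 13 tested. In normoxic mice the injury raised 2 of them and lowered 9, with a median of -0.53, against 41.6% and 30.1% of all genes. Preconditioned RIRI kidneys had 9 higher and 2 lower than normoxic RIRI kidneys, with a median of 0.40, against 24.7% and 17.4% of all genes. The largest change in the family was that of Slc25a24 (chromosome 3, 109123149-109168409, RefSeq positions on GRCm38, the build named mm10), a calcium-regulated carrier that exchanges ATP-magnesium for phosphate. Its FPKM was 0.709, 0.984 and 1.08 in normoxic sham, 23.99, 25.3 and 23.5 in normoxic RIRI, 1.36, 0.893 and 1.58 in preconditioned sham and 13.0, 9.18 and 11.9 in preconditioned RIRI. The sham groups overlapped at a low level, while the RIRI groups were apart from both shams and from each other. The log2 fold change was 3.72 ± 0.14 (SE, adjusted p = 2.11e-09) for the injury in normoxic mice and 2.44 ± 0.14 (SE, adjusted p = 2.12e-07) in preconditioned mice, and -1.04 ± 0.14 (SE, adjusted p = 0.000191) between the RIRI groups. On the log2(FPKM + 1) scale a rise from so low a level is understated.

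Its close relative Slc25a23 (chromosome 17, 57043711-57059909), another ATP-magnesium and phosphate carrier, moved the other way. FPKM was 33.7, 32.1 and 31.2 in normoxic sham, 11.8, 12.9 and 12.6 in normoxic RIRI, 40.3, 40.9 and 40.1 in preconditioned sham and 20.8, 25.3 and 23.8 in preconditioned RIRI. None of the 4 groups overlapped another, with normoxic RIRI at the bottom and preconditioned sham at the top. Its injury change was -1.31 ± 0.08 (SE, adjusted p = 4.2e-08) in normoxic and -0.77 ± 0.08 (SE, adjusted p = 9.63e-06) in preconditioned mice, and it was higher by 0.85 ± 0.08 (SE, adjusted p = 2.15e-05) in preconditioned RIRI. The third ATP-magnesium carrier, Slc25a25, varied within groups and was called in none of the 5 comparisons. Its FPKM was 5.98, 7.59 and 19.3 in normoxic sham, 7.86, 14.3 and 8.44 in normoxic RIRI, 4.02, 11.5 and 2.56 in preconditioned sham and 9.53, 4.07 and 10.8 in preconditioned RIRI, so that all groups overlapped.

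The carriers Slc25a42 and Slc25a16 were called lower. Slc25a42 (chromosome 8, 70184340-70212281), which brings coenzyme A into mitochondria, read 30.7, 30.7 and 30.3 in normoxic sham and 8.56, 10.01 and 6.46 in normoxic RIRI, a change of -1.77 ± 0.16 (SE, adjusted p = 9.89e-07). In preconditioned mice it read 24.8, 22.5 and 27.7 in sham and 13.7, 13.7 and 19.9 in RIRI, a change of -0.65 ± 0.16 (SE, adjusted p = 0.00443), and the RIRI groups differed by 0.84 ± 0.16 (SE, adjusted p = 0.00148). All RIRI values lay below all sham values, and the preconditioned RIRI kidneys lay between. Slc25a16, a carrier linked to coenzyme A supply, read 33.4, 37.7 and 32.5 in normoxic sham, 16.1, 16.5 and 13.2 in normoxic RIRI, 35.8, 36.3 and 37.8 in preconditioned sham and 22.2, 24.4 and 22.8 in preconditioned RIRI. Its injury change was -1.13 ± 0.09 (SE, adjusted p = 3.96e-07) in normoxic mice, and it was 0.57 ± 0.09 (SE, adjusted p = 0.000518) higher in preconditioned than normoxic RIRI.

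The peroxisomal carrier Slc25a17, which exchanges coenzyme A, FAD and NAD across the peroxisome membrane, had a different order of groups. FPKM was 51.4, 56.2 and 56.2 in normoxic sham, 42.3, 32.7 and 38.4 in normoxic RIRI, 63.9, 59.3 and 72.0 in preconditioned sham and 73.9, 65.9 and 69.7 in preconditioned RIRI. The preconditioned RIRI values overlapped those of their own sham and exceeded every normoxic value. Its injury change was -0.53 ± 0.10 (SE, adjusted p = 0.000515) in normoxic mice and was not called in preconditioned mice at 0.10 ± 0.10 (SE, adjusted p = 0.408), and the RIRI groups differed by 0.87 ± 0.10 (SE, adjusted p = 9.07e-05). Among pyrimidine nucleotide carriers, Slc25a33 rose and Slc25a36 fell. Slc25a33 (chromosome 4, 149744036-149774267) read 4.74, 5.74 and 4.51 in normoxic sham, 10.7, 13.0 and 9.99 in normoxic RIRI, 4.30, 4.88 and 4.999 in preconditioned sham and 5.73, 7.09 and 7.85 in preconditioned RIRI. Its injury change was 1.03 ± 0.12 (SE, adjusted p = 1.28e-05) in normoxic and 0.46 ± 0.12 (SE, adjusted p = 0.00855) in preconditioned mice, and it was -0.64 ± 0.12 (SE, adjusted p = 0.00193) in preconditioned against normoxic RIRI. Slc25a36 read 10.8, 11.5 and 11.7, 5.12, 5.43 and 5.71, 11.7, 11.1 and 14.7 and 6.90, 7.99 and 7.47 in the same order, with changes of -0.94 ± 0.10 (SE, adjusted p = 3.82e-06), -0.67 ± 0.10 (SE, adjusted p = 0.000156) and 0.40 ± 0.10 (SE, adjusted p = 0.00712). GENCODE places 14.9% of the exon bases of Slc25a33 under an antisense gene, and no source used here says whether counting used strand.

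The ADP/ATP translocases, which pass ADP in and ATP out, were the first and the fourth in sham level, and both fell. Slc25a5 (chromosome X, 36795597-36798808) read 827, 823 and 829 in normoxic sham, 605, 596 and 578 in normoxic RIRI, 834, 874 and 888 in preconditioned sham and 721, 746 and 717 in preconditioned RIRI. The 4 groups did not overlap, and the changes were -0.48 ± 0.06 (SE, adjusted p = 1.04e-05) for the injury in normoxic mice, -0.25 ± 0.06 (SE, adjusted p = 0.00284) in preconditioned mice and 0.29 ± 0.06 (SE, adjusted p = 0.00169) between the RIRI groups. Slc25a4 read 209, 209 and 198, 186, 129.8 and 143, 244, 266 and 312 and 184, 235 and 188 in the same order. Its changes were -0.44 ± 0.14 (SE, adjusted p = 0.0129), -0.44 ± 0.14 (SE, adjusted p = 0.0192) and 0.41 ± 0.14 (SE, adjusted p = 0.0319), and the RIRI groups overlapped. The call of Slc25a4 was lost in the normoxic injury comparison without NR2 (adjusted p = 0.0557). In preconditioned mice it was lost without HS3, HR1 or HR3, and between RIRI groups without NR2, NR3 or HR2 (adjusted p = 0.0661 to 0.128) and under median-ratio rescaling (adjusted p = 0.0525). Slc25a51, the NAD carrier, was at 49.5 ± 3.13 in normoxic sham and 25.01 ± 3.33 in normoxic RIRI (SD, n = 3). It changed by -0.96 ± 0.11 (SE, adjusted p = 7.2e-06) in normoxic and -0.74 ± 0.11 (SE, adjusted p = 0.000151) in preconditioned mice. Between RIRI groups it was higher by 0.32 ± 0.11 (SE, adjusted p = 0.0337), a call lost under both rescalings and without NR1, NR3 or HR2 (0.21 without HR2). Slc25a32, a folate and FAD carrier, stayed between FPKM 2.18 and 3.15 and was called in no comparison, although it was called higher after normoxic injury without NR2 (adjusted p = 0.0488).

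**Figure D3:**
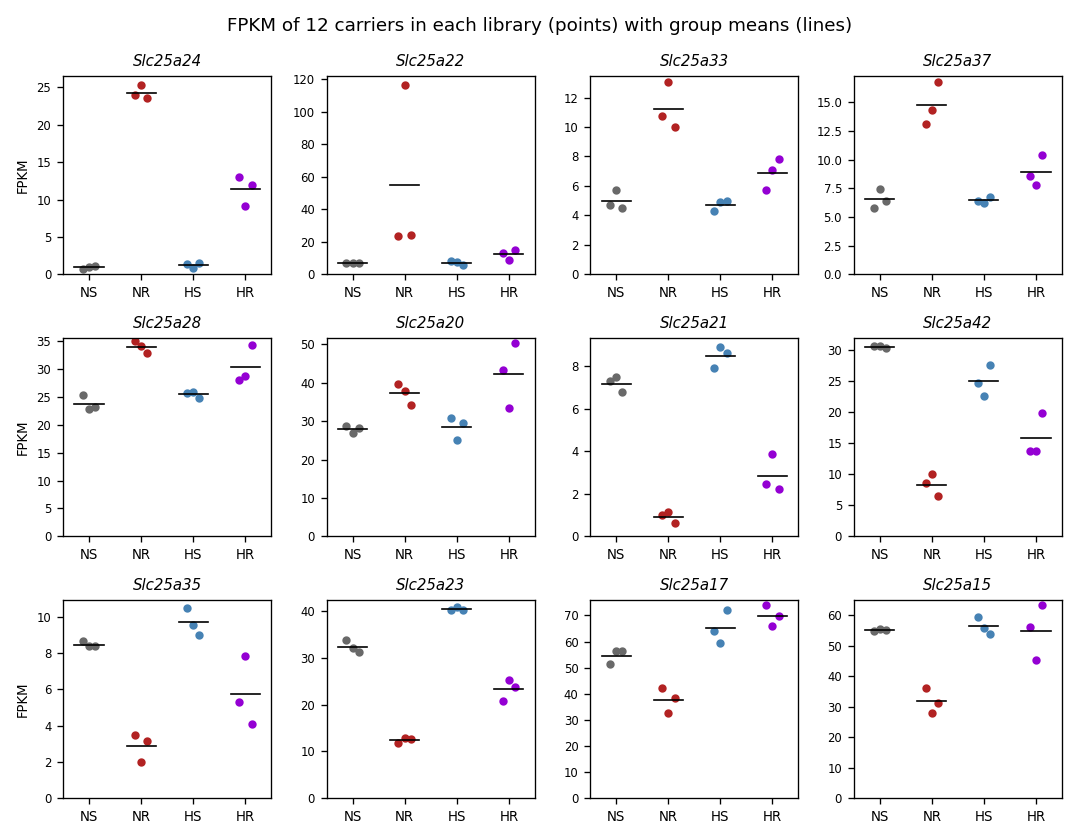
FPKM (y axis, from 0) of 12 carriers in each of the 12 libraries, by group (NS normoxic sham, NR normoxic RIRI, HS preconditioned sham, HR preconditioned RIRI), with points for mice and lines at the group means. Slc25a24 is near 1 in both sham groups, 23.5 to 25.3 in NR and 9.18 to 13.0 in HR, while Slc25a42, Slc25a21 and Slc25a23 are lowest in NR.

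Of 11 amino acid and related carriers tested, the injury in normoxic mice raised 1 and lowered 7 (median -0.30), against 41.6% and 30.1% of all genes. In preconditioned against normoxic RIRI 4 were higher and 1 lower (median 0.10), against 24.7% and 17.4% of all genes. The raised one was Slc25a22 (chromosome 7, 141429749-141437874), a glutamate carrier. Its FPKM was 6.79, 6.87 and 6.87 in normoxic sham, 23.4, 117 and 24.4 in normoxic RIRI, 8.23, 7.59 and 5.91 in preconditioned sham and 13.2, 8.55 and 15.0 in preconditioned RIRI. Every RIRI value exceeded every sham value, and NR2 stood apart from the other two of its group. The neutrophil genes were also highest in that library, at a summed FPKM of 293 against 132 and 206; their part was not tested. The injury change was 2.41 ± 0.47 (SE, adjusted p = 0.000561) in normoxic mice, and 1.67 (adjusted p = 1.51e-05) without that library. Between RIRI groups the change was -1.69 ± 0.47 (SE, adjusted p = 0.013), or -0.94 (adjusted p = 0.00344) without it, and the call was lost without HR2 (adjusted p = 0.0536). In preconditioned mice the change of 0.66 ± 0.47 (SE, adjusted p = 0.251) was not called, and was called when NR2 was left out of the shared estimate of spread (adjusted p = 0.00615).

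The glutathione carrier Slc25a39 (chromosome 11, 102402969-102408675) was the most abundant of the lowered amino acid group. It read 231, 242 and 221 in normoxic sham, 147, 121 and 115 in normoxic RIRI, 224, 225 and 218 in preconditioned sham and 155, 189 and 175 in preconditioned RIRI. RIRI values lay below sham values, and the RIRI groups did not overlap. Its changes were -0.86 ± 0.10 (SE, adjusted p = 7.82e-06) for the injury in normoxic mice, -0.37 ± 0.10 (SE, adjusted p = 0.00774) in preconditioned mice and 0.44 ± 0.10 (SE, adjusted p = 0.00407) between RIRI groups. Its relative Slc25a40 was called in none of the 5 comparisons, at 2.06, 2.23 and 1.70, 2.29, 2.17 and 2.18, 2.52, 2.53 and 2.39 and 2.00, 2.55 and 2.09 in the same order.

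The ornithine carrier Slc25a15, which serves the urea cycle and ornithine breakdown, fell in normoxic mice alone. FPKM was 54.8, 55.4 and 55.1 in normoxic sham, 36.0, 28.1 and 31.1 in normoxic RIRI, 59.3, 55.6 and 53.9 in preconditioned sham and 56.1, 45.3 and 63.1 in preconditioned RIRI. Preconditioned RIRI overlapped both sham groups and lay above every normoxic RIRI value. The change was -0.78 ± 0.11 (SE, adjusted p = 6.59e-05) in normoxic mice, -0.05 ± 0.11 (SE, adjusted p = 0.749) in preconditioned mice and 0.77 ± 0.11 (SE, adjusted p = 0.000424) between RIRI groups. The aspartate/glutamate carriers of the malate-aspartate shuttle both fell. Slc25a12 read 9.95, 10.3 and 9.58 in normoxic sham, 7.38, 5.32 and 5.83 in normoxic RIRI, 11.3, 12.00 and 10.5 in preconditioned sham and 7.45, 8.83 and 7.80 in preconditioned RIRI. Slc25a13 read 23.7, 24.5 and 21.7, 15.8, 15.2 and 15.5, 22.7, 23.3 and 24.7 and 15.1, 19.2 and 15.6 in that order. Both were lower in RIRI than sham with no overlap, with changes of -0.62 ± 0.10 (SE, adjusted p = 0.000179) and -0.56 ± 0.09 (SE, adjusted p = 0.000111) in normoxic mice and of -0.44 ± 0.10 (SE, adjusted p = 0.00352) and -0.49 ± 0.09 (SE, adjusted p = 0.000668) in preconditioned mice. Between RIRI groups Slc25a12 was higher by 0.34 ± 0.10 (SE, adjusted p = 0.0208), a call lost without NR2, NR3 or HR2 (adjusted p = 0.0642 to 0.0825), and Slc25a13 was not called (0.09 ± 0.09 (SE, adjusted p = 0.434)).

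Smaller falls in normoxic mice were called for Slc25a38, a glycine carrier that supplies heme synthesis, at -0.30 ± 0.08 (SE, adjusted p = 0.00609), for Slc25a29, a carrier of basic amino acids, at -0.35 ± 0.11 (SE, adjusted p = 0.0151), and for Slc25a44, linked to branched-chain amino acids, at -0.24 ± 0.08 (SE, adjusted p = 0.0136). The call of Slc25a29 was lost without NS3 or NR1, and that of Slc25a44 without NS1 or NR3 (adjusted p = 0.0533 to 0.0686). Slc25a44 was also higher between RIRI groups at 0.22 ± 0.08 (SE, adjusted p = 0.038), a call lost under both rescalings and without NR2, NR3 or any 1 of the 6 preconditioned libraries. Slc25a26, the S-adenosylmethionine carrier, at FPKM 4.68 to 6.19, and Slc25a48, linked to choline, at 6.26 to 15.3, were called in none of the 5 comparisons. Both rescalings called Slc25a26 lower after injury in normoxic mice (adjusted p = 0.00628 and 0.00277) and in preconditioned mice (adjusted p = 0.0397 and 0.0255).

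All 5 carboxylate and acylcarnitine carriers were tested. The injury in normoxic mice raised 1 and lowered 3 (median -1.17), against 41.6% and 30.1% of all genes. In preconditioned against normoxic RIRI 3 were higher (median 0.67), against 24.7% of all genes. Slc25a21 (chromosome 12, 56712634-57197472), the carrier of oxoadipate and related oxodicarboxylates, fell the farthest of all carriers. FPKM was 7.30, 7.498 and 6.77 in normoxic sham, 1.03, 1.13 and 0.614 in normoxic RIRI, 7.91, 8.92 and 8.65 in preconditioned sham and 2.48, 3.85 and 2.24 in preconditioned RIRI. All RIRI values were below all sham values and the RIRI groups did not overlap. The change was -2.10 ± 0.14 (SE, adjusted p = 1.44e-07) in normoxic mice, -1.32 ± 0.14 (SE, adjusted p = 2.07e-05) in preconditioned mice and 0.99 ± 0.14 (SE, adjusted p = 0.000358) between RIRI groups; its lowest library held 58 reads.

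The 2-oxoglutarate/malate carrier Slc25a11 works with the aspartate/glutamate carriers in the malate-aspartate shuttle. It read 83.9, 91.4 and 76.6 in normoxic sham, 40.9, 32.5 and 35.2 in normoxic RIRI, 94.9, 107 and 99.3 in preconditioned sham and 52.3, 76.2 and 56.6 in preconditioned RIRI. The dicarboxylate carrier Slc25a10, which exchanges malate and succinate for phosphate, read 104, 110.4 and 97.2, 52.0, 51.4 and 35.1, 105, 116 and 98.4 and 62.8, 68.8 and 90.1 in the same order. Neither had overlapping values between sham and RIRI. Slc25a11 changed by -1.19 ± 0.13 (SE, adjusted p = 6.6e-06), -0.71 ± 0.13 (SE, adjusted p = 0.000846) and 0.74 ± 0.13 (SE, adjusted p = 0.00118) for the injury in normoxic mice, the injury in preconditioned mice and the RIRI groups. Slc25a10 changed by -1.17 ± 0.16 (SE, adjusted p = 3.27e-05), -0.53 ± 0.16 (SE, adjusted p = 0.0137) and 0.67 ± 0.16 (SE, adjusted p = 0.00565), and its call in preconditioned mice was lost without HS2 or HR1 (adjusted p = 0.0544 and 0.0605). Slc25a20, the carnitine/acylcarnitine carrier that brings long-chain fatty acids to oxidation, went up instead. It changed by 0.40 ± 0.13 (SE, adjusted p = 0.0141) in normoxic and 0.54 ± 0.13 (SE, adjusted p = 0.00403) in preconditioned mice, and the first call was lost under median-ratio and quantile scaling (adjusted p = 0.0674 and 0.0582). The citrate carrier Slc25a1 was not called in any comparison, with -0.19 ± 0.11 (SE, adjusted p = 0.144) in normoxic mice, although median-ratio rescaling called it lower there (adjusted p = 0.0293) and in preconditioned mice (adjusted p = 0.0347).

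Both iron carriers of the inner membrane, the mitoferrins, rose in normoxic RIRI. Slc25a37 (chromosome 14, 69241848-69285544), known for supplying iron to heme synthesis in red cell precursors, read 5.82, 7.43 and 6.42 in normoxic sham, 13.1, 14.3 and 16.8 in normoxic RIRI, 6.36, 6.25 and 6.77 in preconditioned sham and 8.54, 7.80 and 10.4 in preconditioned RIRI. The more widely expressed Slc25a28 read 25.3, 22.9 and 23.2, 35.0, 34.2 and 32.9, 25.7, 25.8 and 24.8 and 28.1, 28.8 and 34.2 in the same order. The RIRI groups did not overlap for Slc25a37 and did for Slc25a28. Slc25a37 changed by 1.06 ± 0.12 (SE, adjusted p = 5.94e-06) in normoxic mice, 0.40 ± 0.12 (SE, adjusted p = 0.0117) in preconditioned mice and -0.67 ± 0.12 (SE, adjusted p = 0.000997) between RIRI groups. Slc25a28 changed by 0.50 ± 0.08 (SE, adjusted p = 0.00013), 0.24 ± 0.08 (SE, adjusted p = 0.0231) and -0.16 ± 0.08 (SE, adjusted p = 0.117). In preconditioned mice the call of Slc25a37 was lost without HR3 (adjusted p = 0.0534) and under quantile scaling (adjusted p = 0.0520). That of Slc25a28 was lost without HR3, when the change was 0.16, without HS1 or HS3, and under both rescalings. Between RIRI groups median-ratio rescaling called Slc25a28 lower (adjusted p = 0.0312). The 4 red blood cell genes summed to FPKM 643 to 900 in normoxic sham, 447 to 868 in normoxic RIRI, 1508 to 1855 in preconditioned sham and 443 to 2058 in preconditioned RIRI. Only Slc4a1 of these genes, which also stands in the collecting duct list, was called in any of the 5 comparisons. The part of the 4 genes in the change of Slc25a37 was not tested.

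The phosphate carrier Slc25a3 (chromosome 10, 91116574-91124046), which supplies phosphate for ATP synthesis, is the next most abundant member after Slc25a5. It read 459, 466 and 470.4 in normoxic sham, 441, 433 and 392 in normoxic RIRI, 468, 502 and 498 in preconditioned sham and 421, 456 and 411 in preconditioned RIRI. Its injury change was -0.14 ± 0.07 (SE, adjusted p = 0.0811) in normoxic mice, which both rescalings called, and -0.19 ± 0.07 (SE, adjusted p = 0.0348) in preconditioned mice, a call lost without NS1, NS2, HS2, HS3, HR1 or HR3 (adjusted p = 0.0501 to 0.111). The uncoupling protein relatives Slc25a14, at FPKM 1.61 to 3.40, and Slc25a30, at 13.2 to 28.9, were called in none of the 5 comparisons, although Slc25a30 was called higher after injury in preconditioned mice without NR2 (adjusted p = 0.0154). Among carriers with no settled substrate, Slc25a35 and Slc25a45 fell, and Slc25a34 and Slc25a46, the latter at FPKM 10.7 to 12.9, were not called. Both rescalings called Slc25a46 lower between the RIRI groups (adjusted p = 0.0260 and 0.0405) and after injury in preconditioned mice (adjusted p = 0.0412 and 0.0214), and Slc25a34 was called higher in the latter comparison without HR2 (adjusted p = 0.0123). Slc25a35 read 8.66, 8.39 and 8.37 in normoxic sham, 3.49, 1.98 and 3.18 in normoxic RIRI, 10.5, 9.56 and 9.01 in preconditioned sham and 5.32, 7.83 and 4.09 in preconditioned RIRI. It changed by -1.31 ± 0.18 (SE, adjusted p = 4.93e-05) in normoxic mice, -0.70 ± 0.18 (SE, adjusted p = 0.00752) in preconditioned mice and 0.78 ± 0.18 (SE, adjusted p = 0.00591) between RIRI groups. In GENCODE 31.3% of its exon bases lie under Rangrf on the opposite strand, so its reads cannot be told apart from that gene's without stranded counting.

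A different order of groups was seen for Slc25a45, another carrier with no settled substrate. It read 18.7, 18.7 and 18.1 in normoxic sham, 15.1, 13.9 and 14.8 in normoxic RIRI, 18.5, 17.9 and 14.7 in preconditioned sham and 12.1, 12.3 and 12.3 in preconditioned RIRI. Preconditioned RIRI held the 3 lowest values. Its changes were -0.32 ± 0.08 (SE, adjusted p = 0.00345) in normoxic mice, -0.44 ± 0.08 (SE, adjusted p = 0.000775) in preconditioned mice and -0.24 ± 0.08 (SE, adjusted p = 0.0344) between RIRI groups, and the last was lost without NR1, NR3, HR1, HR2 or HR3 (adjusted p = 0.0681 to 0.0814).

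The difference between the 2 injury effects was tested directly as an interaction, in which the normoxic effect is subtracted from the preconditioned one. It was called positive for 8 carriers and negative for 3, against 11.3% and 12.6% of all genes (23.9% in all), with a median of 0.19 over the carriers and -0.00 over all genes. For the 3 negative ones, Slc25a24, Slc25a37 and Slc25a33, the injury effect was positive in normoxic mice and smaller with preconditioning. For the 8 positive ones it was negative in normoxic mice. The smallest adjusted p were those of Slc25a24 at -1.28 ± 0.19 (SE, adjusted p = 0.00148), Slc25a42 at 1.13 ± 0.22 (SE, adjusted p = 0.00487), Slc25a23 at 0.54 ± 0.11 (SE, adjusted p = 0.00548), Slc25a15 at 0.74 ± 0.16 (SE, adjusted p = 0.00848), Slc25a17 at 0.63 ± 0.14 (SE, adjusted p = 0.00947) and Slc25a37 at -0.65 ± 0.16 (SE, adjusted p = 0.015). The call of Slc25a33 (-0.57 ± 0.17 (SE, adjusted p = 0.0344)) was lost without NS1, NS3, NR2, HS2, HS3, HR1 or HR2 and under quantile scaling (adjusted p = 0.0581), and that of Slc25a39 (0.50 ± 0.14 (SE, adjusted p = 0.0238)) without NS1, NS2, NR3, HS3 or HR2. The interaction of Slc25a22 was not called at -1.75 ± 0.66 (SE, adjusted p = 0.0735), and was called without NR1, NR2 or NR3.

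Ratios of relatives within a library do not depend on its depth. The FPKM ratio of Slc25a23 to Slc25a24 ran from 29.0 to 47.6 in normoxic sham and 25.4 to 45.8 in preconditioned sham, from 0.492 to 0.535 in normoxic RIRI and from 1.60 to 2.76 in preconditioned RIRI. The major ATP-magnesium carrier transcript was thus Slc25a23 in every sham kidney and Slc25a24 in every normoxic RIRI kidney. The ratio of Slc25a33 to Slc25a36 was 0.387 to 0.501 and 0.339 to 0.440 in the sham groups, 1.75 to 2.40 in normoxic RIRI and 0.831 to 1.05 in preconditioned RIRI. That of Slc25a39 to Slc25a40 was 109 to 130.0 in normoxic sham, 52.6 to 64.2 in normoxic RIRI, 89.0 to 91.5 in preconditioned sham and 74.2 to 83.5 in preconditioned RIRI. For these pairs both RIRI groups lay apart from the sham groups and from each other.

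The mitoferrin ratio of Slc25a28 to Slc25a37 was 3.08 to 4.35 in normoxic sham and 1.96 to 2.66 in normoxic RIRI, and 3.66 to 4.13 and 3.29 to 3.69 with preconditioning. Normoxic RIRI was apart from the other groups. The ratio of Slc25a34, called in no comparison at 13.1, 9.60 and 11.6, 14.5, 15.2 and 10.5, 10.97, 8.47 and 11.6 and 14.4, 10.5 and 21.1, to Slc25a35 was 1.14 to 1.51 in normoxic sham and 3.29 to 7.69 in normoxic RIRI. The ratios of Slc25a4 to Slc25a5, Slc25a12 to Slc25a13 and Slc25a10 to Slc25a11 overlapped between normoxic sham and normoxic RIRI. Between normoxic and preconditioned sham that of Slc25a12 to Slc25a13 overlapped too. The sham groups did not overlap for Slc25a4 to Slc25a5 (0.238 to 0.254 and 0.293 to 0.351) or Slc25a10 to Slc25a11 (1.21 to 1.27 and 0.990 to 1.10). No test was run on the ratios, since the tests of their members use the same values.

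**Figure D4:**
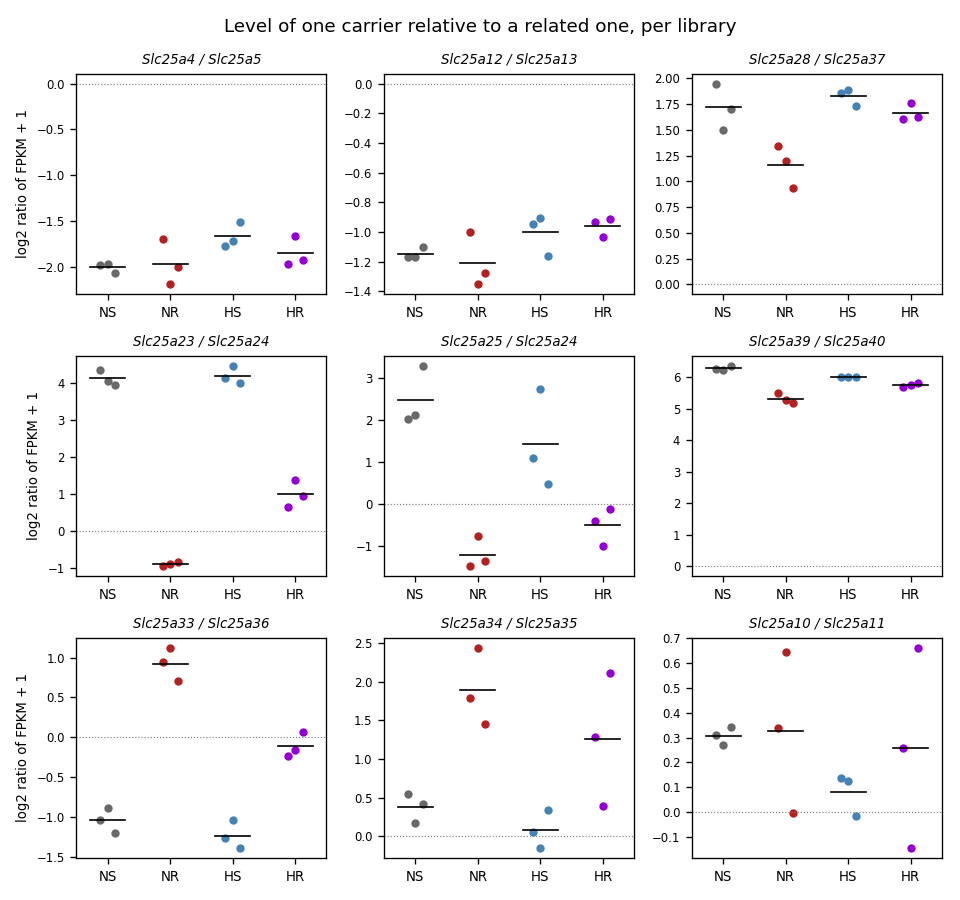
Log2 ratio of the values of related carriers (y axis) within each of the 12 libraries, by group (NS, NR, HS, HR), with 1 point a mouse. The ratio of Slc25a23 to Slc25a24 falls from the sham groups to HR and further to NR, while that of Slc25a4 to Slc25a5 overlaps between NS and NR.

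Promoter sequences, RefSeq on GRCm38.p6 from 250 bases before to 50 after the start, matched 35 of the 45 members. Shown are Slc25a24, the carrier raised most, Slc25a33, a raised carrier whose window holds the hypoxia response core, as that of Slc25a28 also does, and Slc25a42, the lowered carrier with 5 matches to CCAAT. The motifs and these promoters were chosen after expression values were seen. Capitals mark ACGTG and CCAAT on either strand, and all letters run 5' to 3' along the gene. The first window is chr3:109122899-109123198 on the plus strand, the second chr4:149774218-149774517 and the third chr8:70212232-70212531, both on the minus strand.
Slc25a24: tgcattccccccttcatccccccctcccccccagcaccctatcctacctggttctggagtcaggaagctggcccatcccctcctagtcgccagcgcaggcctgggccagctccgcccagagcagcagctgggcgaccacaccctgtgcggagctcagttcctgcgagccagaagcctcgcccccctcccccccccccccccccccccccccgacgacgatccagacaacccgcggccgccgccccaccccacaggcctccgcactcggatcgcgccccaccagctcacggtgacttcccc
Slc25a33: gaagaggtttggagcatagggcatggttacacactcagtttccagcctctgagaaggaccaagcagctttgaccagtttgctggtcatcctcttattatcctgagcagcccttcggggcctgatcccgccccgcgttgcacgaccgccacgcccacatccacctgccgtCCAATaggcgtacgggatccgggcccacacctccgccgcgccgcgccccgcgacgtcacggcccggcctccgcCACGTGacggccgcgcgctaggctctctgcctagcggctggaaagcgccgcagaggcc
Slc25a42: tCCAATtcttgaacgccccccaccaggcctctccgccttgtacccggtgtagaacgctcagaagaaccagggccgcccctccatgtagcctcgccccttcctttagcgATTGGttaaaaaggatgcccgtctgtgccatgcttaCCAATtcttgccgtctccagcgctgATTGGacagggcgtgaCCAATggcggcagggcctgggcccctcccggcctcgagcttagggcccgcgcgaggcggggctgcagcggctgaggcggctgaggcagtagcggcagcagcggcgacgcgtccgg

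Of 6 motifs searched on both strands, CCAAT stood in 10 of the 17 lowered carriers with a window (58.8%), in 2 of the 5 raised (40.0%) and in 37.4% of all 32851 promoters of the same length. ACGTG, the core that hypoxia-inducible factors bind, stood in 2 of 17 (11.8%), in 2 of 5 (40.0%) and in 19.6% of all. Over all 35 carriers with a window, called or not, CCAAT stood in 17 (48.6%) and ACGTG in 10 (28.6%). Each carrier was counted with 1 window, while the set of all promoters held several for some genes. A palindrome CACGTG, as in Slc25a33, counts on both strands. The AP-1 motif TGANTCA (7.81% of all) was in Slc25a11 and Slc25a13 alone among the raised and lowered carriers. The ERR motif AAGGTCA (4.72%), the NRF1 motif (4.60%) and the ATF4 and C/EBP motif TGATGNAA (3.97%) were in no window of a raised or lowered carrier. The Slc25a24 window held none of the 6. A match is a description of letters, not of binding.

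Other carriers and pores of mitochondria were taken from lists of related genes. Of the family's members under other symbols, 1 of 4 tested rose in normoxic RIRI and 3 fell. The one that rose was Ucp2, an uncoupling protein, at 1.80 ± 0.29 (SE, adjusted p = 0.000154), and it was -0.98 ± 0.29 (SE, adjusted p = 0.0192) in preconditioned against normoxic RIRI. Its normoxic RIRI values were 109, 237 and 87.0, highest in NR2 as for Slc25a22. Mtch1, a carrier relative of the outer membrane, changed by -0.55 ± 0.07 (SE, adjusted p = 3.15e-05) and 0.48 ± 0.07 (SE, adjusted p = 0.000529). Of 25 other membrane transport genes, 16 fell and 6 rose in normoxic RIRI, and 11 were higher and 2 lower in preconditioned than normoxic RIRI. Over all genes 30.1% fell and 41.6% rose in the first comparison, and 24.7% were higher and 17.4% lower in the second. Sfxn2, a sideroflexin, changed by -1.83 ± 0.12 (SE, adjusted p = 9.25e-08) and 1.07 ± 0.12 (SE, adjusted p = 7.27e-05). Mpc2, a subunit of the pyruvate carrier, changed by -1.21 ± 0.08 (SE, adjusted p = 7.92e-08) and 0.48 ± 0.08 (SE, adjusted p = 0.000669). Nnt, the proton-coupled transhydrogenase, changed by -1.20 ± 0.08 (SE, adjusted p = 7.05e-08) and 0.44 ± 0.08 (SE, adjusted p = 0.00101).

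The import route of the carriers was counted as well. Of 15 TOM and TIM22 genes tested, 7 rose and 2 fell in normoxic RIRI (median 0.20), and 1 was higher and 1 lower in preconditioned than normoxic RIRI. Tomm40, the pore of the outer membrane, rose by 0.84 ± 0.10 (SE, adjusted p = 9.78e-06), Tomm70a, a receptor for carrier precursors, by 0.48 ± 0.06 (SE, adjusted p = 2.05e-05), and Timm10, a chaperone of the space between the membranes, by 0.66 ± 0.10 (SE, adjusted p = 9.43e-05). Over all genes 41.6% were called higher in normoxic RIRI, a share close to that of these 15, and 30.1% lower. Between the RIRI groups 24.7% of all genes were higher and 17.4% lower.

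The 7 members that were not tested stayed at or under FPKM 1.06 in every library. Slc25a31, the ADP/ATP translocase of testis, held 0 to 2 reads and was at 0 in 9 of 12 libraries, where a count of 0 allows up to 3 reads. Slc25a18, the other glutamate carrier, held 0 to 6 reads, so nearly all glutamate carrier transcript was Slc25a22, and no ratio to Slc25a18 is given. Slc25a2, an ornithine carrier, held 0 to 5 reads. Slc25a43, which lies beside Slc25a5 on chromosome X, was at FPKM 0.0821 to 0.309. The others were Slc25a27, at up to 0.328, Slc25a53, at up to 0.208, and Slc25a47, which reached 1.06 in NR3. Slc25a41 and Slc25a54, which RefSeq lists, had no row and were not analysed here.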

How the data were processed

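Total RNA of kidney tissue was sequenced in 12 libraries, 4 groups of 3 mice. RNA came from a TRIzol extraction, the library kit was VAHTS Universal V10 and the sequencer a DNBSEQ-T7, per the labels' protocols. The authors deposited 1 table of FPKM, 1 value per gene symbol and library. The submitters' processing notes name mm10, HTSeq and DESeq2 with no versions or roles, and no source used here names the aligner, the annotation or the use of strand. FPKM corrects for gene length and depth, so a large shift in a few genes can move all others, which the rescaling alternatives test. The study's proteomic measurements were not analysed here.

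Whole reads could be recovered for all 25553 genes from the steps of their FPKM, at a tolerance of 1e-06, and served for depth and 1 alternative. limma 3.58.1 in R 4.3.3 was fitted to log2(FPKM + 1) of the 12357 genes that reached FPKM 1 in 3 or more of the 12 libraries. The fit had 4 group means, a trend in empirical Bayes and 5 contrasts. Adjusted p values are from limma with the Benjamini-Hochberg method over all genes tested, and a gene was called under 0.05. Errors of fold changes are SE and those of FPKM are SD over 3 mice. The fit was tested on simulated data. The alternatives were another pseudocount, other filters, median-ratio and quantile scaling, limma's voom on recovered reads, fits of the groups compared alone, no trend, a minimum change, a replicate block and leaving out each library. Positions are from RefSeq and exon overlaps from GENCODE M21, both on GRCm38, and promoters from RefSeq on GRCm38.p6. No source used here says whether samples with the same replicate number were paired. In the text and plots 1 tested carrier is not reported here by name, and counts over the family include it.

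The members, lists, motifs and tests were chosen with earlier results of these data known. Values are given in every library for carriers called in normoxic RIRI with a log2 fold change of 1 or more either way (at most 10 each way), the 6 largest changes each way between RIRI groups, the 6 interaction calls of smallest adjusted p, the 5 carriers of highest mean FPKM and the members of 10 pairs of relatives. For lists of related genes, up to 3 called members of smallest adjusted p are named. Marker counts in normoxic RIRI against normoxic sham that are not given elsewhere follow, where 41.6% of all genes rose and 30.1% fell. Of thick ascending limb genes 0 of 6 rose and 5 fell, of distal and connecting tubule genes 0 of 4 and 3, of collecting duct genes 0 of 5 and 4, of podocyte genes 2 of 4 and 2. Endothelial genes had 3 of 5 and 0, fibroblast and pericyte genes 1 of 4 and 1, and monocyte and macrophage genes 3 of 6 and 1. For neutrophil genes these counts were 7 of 7 and 0, for tubular injury genes 4 of 4 and 0, and for red blood cell genes 0 of 4 and 1. Of B and plasma cell genes 1 was tested and not called, of adipose genes 2 were tested and both fell, and no T and NK cell gene was tested.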

Additional observations from a re-analysis of the deposited data

Results flagged for a closer look

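Each of the following carriers had an injury effect that differed between preconditioned and normoxic mice by the interaction test in limma, given as the log2 effect with preconditioning minus that without. Negative differences, where the injury effect without preconditioning was a rise, were those of Slc25a24 at -1.28 ± 0.19 (SE), Slc25a37 at -0.65 ± 0.16 and Slc25a33 at -0.57 ± 0.17. Positive differences, where it was a fall, were those of Slc25a42 at 1.13 ± 0.22, Slc25a23 at 0.54 ± 0.11, Slc25a15 at 0.74 ± 0.16, Slc25a17 at 0.63 ± 0.14, Slc25a16 at 0.49 ± 0.13, Slc25a21 at 0.78 ± 0.20 and Slc25a39 at 0.50 ± 0.14. The adjusted p ran from 0.00148 for Slc25a24 to 0.0344 for Slc25a33. The calls of Slc25a33 and Slc25a39 were each lost on leaving out any of several single libraries, as given above. That of Slc25a33 was also lost under quantile scaling (adjusted p = 0.0581). Of these 7 positive carriers, 4 carry nucleotides or cofactors (Slc25a42, Slc25a23, Slc25a17 and Slc25a16), 2 amino acids or related compounds (Slc25a15 and Slc25a39) and 1 carboxylates (Slc25a21). Marker genes of the tubule differed as well, with a positive interaction called for 6 of 10 proximal tubule genes (median 0.63), 5 of 6 thick ascending limb genes (median 1.94) and 3 of 5 collecting duct genes (median 1.17). Over all genes tested the interaction was called positive for 11.3% and negative for 12.6%. Neutrophil genes differed between the RIRI groups too, and the part of these genes was not tested.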

How the results depend on the processing

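No carrier changed direction while called under the other pseudocount, median-ratio or quantile scaling, the replicate block or the fits leaving out each library. The direction of single carriers was not compared under the other alternatives. With a minimum log2 fold change of 1, normoxic injury had 8 carriers lower, the RIRI groups differed in 0 higher and 2 lower, injury in preconditioned mice had 1 higher and 1 lower, and the interaction 1 positive and 1 negative. Fits of the groups compared alone gave 3 lower between RIRI groups and 1 higher between sham groups. Quantile scaling gave 3 higher for injury in preconditioned mice, and no filter 5 positive interactions. The cause was not tested. Leaving out each library gave 6 to 7 higher and 20 to 21 lower for normoxic injury, 13 to 17 higher and 3 to 5 lower between RIRI groups, 3 to 7 higher and 15 to 18 lower for injury in preconditioned mice, 6 to 12 positive and 2 to 4 negative interactions, and 0 between sham groups. Among single carriers 64 calls were lost and 21 gained over all those refits. Over 18 same-numbered pairs the correlation of deviations was -0.25 to 0.17, with 4 over 0.1. NR1 and HR2, of different numbers, were at 0.34. These correlations cannot settle whether replicate numbers stand for a pairing. The replicate block gave 6 and 21, 16 and 5, 5 and 17, and 8 and 3 calls in the same order, and 0 between sham groups, losing Slc25a4 between RIRI groups (adjusted p = 0.0547) and Slc25a3 for injury in preconditioned mice (adjusted p = 0.0501). Tested carriers had at least 58 reads in each library, and 3 mice a group limit small changes.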

Other observations

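Enzymes that work on the substrates of these carriers were listed by pathway. Of 6 tested ornithine and urea cycle genes, 5 fell and 1 rose in normoxic RIRI against normoxic sham, and 3 were higher in preconditioned than in normoxic RIRI. For all genes the shares were 30.1% lower and 41.6% higher in the first comparison, and 24.7% higher and 17.4% lower in the second. Gatm, the first enzyme of creatine synthesis, changed by -5.00 ± 0.31 (SE, adjusted p = 6.14e-08) and was 2.55 ± 0.31 (SE, adjusted p = 0.000118) between the RIRI groups. Arg2, the mitochondrial arginase, rose by 3.83 ± 0.25 (SE, adjusted p = 1.01e-07) and was not called between RIRI groups at 0.21 ± 0.25 (SE, adjusted p = 0.534). Ass1, which makes argininosuccinate, changed by -1.86 ± 0.13 (SE, adjusted p = 1.3e-07). Of 9 heme synthesis genes, 6 fell and 1 rose in normoxic RIRI, against 30.1% and 41.6% of all genes. In preconditioned against normoxic RIRI 7 were higher, against 24.7% of all genes. Uros changed by -1.03 ± 0.12 (SE, adjusted p = 1.29e-05), Ppox by -0.62 ± 0.08 (SE, adjusted p = 2.12e-05) and Alad by -0.80 ± 0.10 (SE, adjusted p = 2.34e-05). Of 7 one-carbon genes, 3 rose and 4 fell in normoxic RIRI, against 41.6% and 30.1% of all genes. In preconditioned against normoxic RIRI 4 were higher and 2 lower, against 24.7% and 17.4% of all genes. Mthfd1l and Mthfd2, mitochondrial enzymes that work on folate carried by Slc25a32, rose by 2.67 ± 0.12 (SE, adjusted p = 6.65e-09) and 3.33 ± 0.16 (SE, adjusted p = 9.72e-09), and were -1.25 ± 0.12 (SE, adjusted p = 2.84e-05) and -0.90 ± 0.16 (SE, adjusted p = 0.00101) between the RIRI groups. Aldh1l1, a cytosolic folate enzyme, changed by -1.16 ± 0.10 (SE, adjusted p = 1e-06).

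The malate-aspartate shuttle enzymes had 2 of 4 higher and 1 lower in normoxic RIRI. Mdh1, the cytosolic malate dehydrogenase, changed by -1.30 ± 0.08 (SE, adjusted p = 4.49e-08) while Got1, the cytosolic aspartate aminotransferase, changed by 0.61 ± 0.10 (SE, adjusted p = 0.00023) and Got2, the mitochondrial one, by 0.31 ± 0.06 (SE, adjusted p = 0.000862). Of 4 tested carnitine genes, 1 rose and 2 fell; Slc22a5, the plasma membrane carnitine transporter, changed by -0.75 ± 0.18 (SE, adjusted p = 0.00222), Cpt2, which frees acyl groups from the carnitine that Slc25a20 brings in, by 0.55 ± 0.15 (SE, adjusted p = 0.005), and Crat by -0.32 ± 0.12 (SE, adjusted p = 0.0378). Of the citrate and NAD shuttle genes, Aco1 changed by -0.65 ± 0.06 (SE, adjusted p = 2.61e-06) and Gpd1 by -1.12 ± 0.12 (SE, adjusted p = 7.02e-06). Over all genes 41.6% were called higher and 30.1% lower in normoxic RIRI against normoxic sham, and 24.7% higher and 17.4% lower in preconditioned against normoxic RIRI.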
